A study of Homo sapiens and Mus musculus with 100 samples.

Results

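The genes described here carry riboflavin (vitamin B2) into the cell and turn it into its working cofactors. There are 6 of them, chosen by name: SLC52A1, SLC52A2, SLC52A3, RFK, FLAD1 and SLC25A32. All 6 were among the 28035 genes listed for human cells, and 5 of them, without Slc52a1, were among the 24940 listed for mouse. Per the labels' protocols, messenger RNA was measured by 3′-end RNA sequencing (QuantSeq). Whether the mouse livers were sequenced with the same kit cannot be read from the headers of their columns. The human samples were HepG2 cells, a hepatoblastoma-derived liver line, and Caco-2 cells, a colon carcinoma line used as a model of the gut lining. The mouse samples were hepatocytes from AhR-flox mice and livers of mice. Each system was studied both supplied with and deprived of vitamin B2. The labels give 100 samples in 32 groups, and the 8 tables used here hold 98 of them as columns.

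Riboflavin enters cells through the SLC52 family of plasma membrane transporters. RFK, riboflavin kinase, phosphorylates it to FMN, and FLAD1, FAD synthetase, joins FMN to adenylate to give FAD. SLC25A32, a carrier of the inner mitochondrial membrane, is known as the mitochondrial FAD transporter and also as the mitochondrial folate carrier. FMN and FAD are the redox cofactors of acyl-CoA dehydrogenases, of respiratory complexes and of many oxidases and reductases, and liver is rich in such enzymes. The aryl hydrocarbon receptor (AhR) is a ligand-activated transcription factor whose classical target is CYP1A1, and kynurenine, a tryptophan metabolite made through the enzymes IDO and TDO, is one of its known ligands.

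HepG2 cells were kept with vitamin B2 (control) or without it (deprived) and sampled at days 3, 6, 9 and 12, with 3 libraries per group. Further HepG2 sets at day 12 crossed control and deprivation with an AhR inhibitor (AhRinh), with an IDO/TDO inhibitor (IDO_TDOinh) or with either of 2 guide RNAs, a control guide and one against AhR, and a separate set crossed DMSO and Kyn with the AhR inhibitor, again with 3 libraries per group. Caco-2 cells were sampled at day 9 with 3 libraries per group. AhR-flox hepatocytes received Ad-Cont or Ad-Cre, which by their names are a control adenovirus and one carrying Cre recombinase, under control or deprived conditions (3 libraries per group, with a 4-week label). Whether the vitamin was withdrawn from the mice or from the cultures of these hepatocytes is not given in the labels. Livers of mice on control or deficient conditions for 4 weeks had 4 columns per group for 10 labelled samples, and the other samples are not analysed here. All hepatocyte groups share the floxed allele, so every comparison of those cells is on that background. The labels do not give the strain, sex or age of the mice, the dose of Kyn, or whether HepG2 cells with a guide were a clone or a pool. Nothing says that replicates came from separate cultures, so p-values in the cell tables measure only how far these samples differ, a spread that may be technical.

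The recovered depth was 4049600 to 19644000 reads per library. Libraries with the AhR inhibitor in the AhR inhibitor table bore another date and folder in the headers than those without it and were deeper (12577700 to 19428000 against 5891600 to 8976000 reads), so that the inhibitor and whatever differed between those dates cannot be told apart there, while deprivation is compared within a date. In that table the third inhibitor-treated control library stood apart from its group, with a mean Pearson r of 0.978 to the other libraries of the group over 11204 genes. In HepG2 all 7 hepatocyte markers were present, and their summed level at day 12 was 23924 to 25565 TPM in controls and 7416 to 7721 TPM in deprived cells. In HepG2 the markers of stellate and of endothelial cells summed to at most 0.606 TPM in the time course. Other lists were higher there. At day 12 bile duct markers, 3 of 4 at 1 TPM or more, summed to 241 to 255 TPM in controls and 299 to 303 TPM in deprived cells. Macrophage markers, 1 of 5 at 1 TPM or more, summed to 4.70 to 5.46 TPM in controls and 10.1 to 10.6 TPM in deprived cells. The part of these markers in the members' values was not tested. CYP1A1, the check of AhR activity, was 31.995 to 36.193 TPM in deprived cells with the control guide and 1.158 to 2.219 TPM with the AhR guide. AHR mRNA itself was 4.373 to 6.514 TPM in controls with the control guide and 4.483 to 4.883 TPM with the AhR guide, and reads at the 3′ end need not cover a guide's site. Ahr was 9.888 to 10.696 TPM in deprived hepatocytes with Ad-Cont and 6.783 to 7.523 TPM with Ad-Cre, and no library of either group was at 0.

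Values are TPM as deposited, a measure meant as a share of all transcripts. The values of the listed genes did not sum to the same total in every library. At day 12 of the time course they summed to 389047 to 397182 in controls and 368224 to 370980 in deprived cells. They divide reads by transcript length, although 3′-end reads do not grow with length, so TPM values are compared between libraries and not between genes. Differences are log2 differences of TPM + 1, deprived minus control unless stated, with their standard error, and a gene was called when limma's Benjamini-Hochberg adjusted p over all tested genes of that contrast was under 0.05. The 4 members called tested below (SLC52A2, RFK, FLAD1 and SLC25A32) passed the filter of at least 1 TPM in 3 libraries in every human table. SLC52A1 and SLC52A3 passed in none and are described by their reads. Whether the libraries of compared groups overlap is given for the members only. The share of all genes whose groups were separate was not counted, so separation alone does not set a member apart. In bulk samples, fewer cells of a type and less RNA per cell cannot be told apart.

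In hg38, SLC52A2 lies on the plus strand at chr8:144358557-144361286 and overlaps FBXL6 on the minus strand. SLC25A32 lies on the minus strand at chr8:103398638-103415335 and overlaps DCAF13 and AC012213.5. No other gene lies over the last 500 bases of SLC52A2, where 3′-end reads fall. Over those of SLC25A32 lies AC012213.5, on the same strand, so reads shared by these 2 cannot be told apart, and SLC25A32 values are uncertain to that extent. The transcript that carried SLC52A2 and SLC25A32 differed between tables, which changes the length in TPM but not the comparisons within a table.

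RFK lies on the minus strand at chr9:76385517-76394528 and FLAD1 on the plus strand at chr1:154983294-154993111 of the same build. SLC52A1 lies on the minus strand at chr17:5032602-5035432 and SLC52A3 on the minus strand at chr20:760080-768584.

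Of the 6 members, only the 2 enzyme genes had an entry among the RefSeq promoters used here (GRCh38.p14), and these are shown as the sequence next to the gene starts. The bases directly upstream of the gene start are given 5′ to 3′ on the gene's strand, 148 bases for RFK (chr9:76394529-76394676, minus strand) and 200 bases for FLAD1 (chr1:154983094-154983293, plus strand), with GC boxes and an E-box in capitals.
RFK: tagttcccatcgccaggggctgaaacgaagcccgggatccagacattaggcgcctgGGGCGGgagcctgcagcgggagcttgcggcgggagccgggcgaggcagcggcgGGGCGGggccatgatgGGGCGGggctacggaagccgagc
FLAD1: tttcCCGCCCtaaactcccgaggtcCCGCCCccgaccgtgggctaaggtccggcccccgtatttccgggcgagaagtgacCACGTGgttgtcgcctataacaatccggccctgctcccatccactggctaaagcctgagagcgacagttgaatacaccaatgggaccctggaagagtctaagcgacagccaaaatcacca
Motifs were sought on both strands of the whole window, 250 bases before to 50 after the RefSeq start. The GC box, GGGCGG, was found 4 times for RFK and 2 times for FLAD1, and 44.95% of 35116 promoters held it. The E-box CACGTG was found once for FLAD1 and not for RFK (7.26% of promoters). The core of the AhR response element, GCGTG, was found once in the RFK window, in the part not printed, and not in the FLAD1 window (36.5% of promoters). Neither window held TGACNNNGC, the core of the antioxidant response element (13.35%), or TGATGNAA, part of the element that ATF4 binds (3.62%). No other overlap was counted, and a match of letters is not a site of binding.

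SLC52A2, the transporter that carried nearly all SLC52 reads in HepG2, moved little over the time course. At day 3 it was 17.3, 15.1 and 17.7 TPM in controls and 19.5, 16.8 and 18.6 TPM in deprived cells. At day 9 it was 13.1, 13.9 and 12.3 TPM in controls and 15.1, 14.6 and 15.9 TPM in deprived cells. At day 9 every deprived library lay above every control, while at day 3 the groups overlapped. The day 9 difference was 0.20 ± 0.08 and passed (adjusted p = 0.0483), and at day 6 it was 0.21 ± 0.08 and did not (adjusted p = 0.0603). At day 12 SLC52A2 stood at 15.1 ± 1.41 TPM (SD, n = 3) in controls and 14.8 ± 0.715 TPM in deprived cells, a difference of -0.02 (adjusted p = 0.836). Between days 3 and 12 it fell in deprived cells (-0.29 ± 0.08, adjusted p = 0.00644), where 35.3% of all genes fell, and with quantile normalization that fall did not pass (-0.12, adjusted p = 0.261). The day 9 call is weak: it held in 1 of 6 fits that each left out 1 library, the one without the second control (adjusted p = 0.0378), with the highest adjusted p, 0.165, without the third control, and with quantile normalization it was 0.12 (adjusted p = 0.225).

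RFK, which makes FMN, was the member that rose at the most time points. At day 3 it was 17.4, 16.6 and 16.9 TPM in controls and 18.0, 18.6 and 16.1 TPM in deprived cells, and the groups overlapped (0.05 ± 0.08, adjusted p = 0.827). At day 6 it was 12.3, 12.3 and 13.2 TPM in controls against 20.2, 20.6 and 20.4 TPM without the vitamin. At day 9 the values were 11.1, 12.9 and 12.2 TPM against 20.6, 20.4 and 21.1 TPM. The groups at both days were wide apart, and the deprived mean was 1.62 times the control mean at day 6 and 1.71 times at day 9. The differences were 0.65 ± 0.08 (adjusted p = 1.23e-06) and 0.73 ± 0.08 (adjusted p = 9.06e-08). At day 12 RFK was 19.0, 15.7 and 14.4 TPM in controls and 19.5, 22.7 and 22.2 TPM in deprived cells, with the lowest deprived library just above the highest control, and the rise was 0.38 ± 0.08 (adjusted p = 0.000392).

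The gap in RFK at days 6 and 9 held both lower controls and higher deprived cells than at day 3. Control RFK averaged 17.0 ± 0.418 TPM at day 3, 12.6 ± 0.515 TPM at day 6, 12.1 ± 0.901 TPM at day 9 and 16.4 ± 2.39 TPM at day 12 (SD, n = 3). Deprived cells averaged 17.6 ± 1.33 TPM, 20.4 ± 0.196 TPM, 20.7 ± 0.360 TPM and 21.5 ± 1.71 TPM at the same days. In deprived cells the change from day 3 to day 12 was 0.27 ± 0.08 (adjusted p = 0.00666), where 14.4% of all genes rose, and in controls it was -0.06 (adjusted p = 0.555). The day 12 deprivation effect exceeded the day 3 effect by 0.33 ± 0.11 (adjusted p = 0.0251). That difference kept its call in 6 of 12 fits that each left out 1 library (adjusted p 0.0018 without the first to 0.0852 without the third day 12 control) and lost it with quantile normalization (0.21, adjusted p = 0.139). With quantile normalization the change in controls from day 3 to day 12 turned to 0.22 (adjusted p = 0.0133). The median of all genes in that comparison lay at -0.21 without that normalization. Of all genes, 23.8% had a greater effect at day 12.

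FLAD1, which makes FAD, was low and its pattern over time crossed. At day 3 it was 5.08, 3.97 and 4.25 TPM in controls and 3.72, 3.63 and 3.07 TPM in deprived cells, so every deprived library lay below every control, and the difference did not pass (-0.28 ± 0.13, adjusted p = 0.263). At day 9 the controls were 1.64, 2.06 and 2.29 TPM and the deprived cells 3.76, 2.83 and 2.86 TPM, a rise of 0.47 ± 0.13 (adjusted p = 0.00486). At day 6 the difference was 0.31 ± 0.13 (adjusted p = 0.0737) and at day 12 it was 0.14 ± 0.13 (adjusted p = 0.374). In control cells FLAD1 fell between day 3 and day 12, from 4.43 ± 0.578 to 2.78 ± 0.415 TPM (-0.53 ± 0.13, adjusted p = 0.00122), against a median of all genes of -0.21 and 46.8% of all genes that fell. In deprived cells the change over the same days was -0.10 (adjusted p = 0.545), and the deprivation effect at day 12 differed from that at day 3 by 0.42 ± 0.18 (adjusted p = 0.0765).

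SLC25A32, the mitochondrial carrier, was lower in 2 of 3 deprived libraries than in any control at day 3 and higher in all of them at day 9. At day 3 it was 4.99, 5.75 and 6.25 TPM in controls and 5.20, 4.89 and 4.74 TPM in deprived cells (-0.16 ± 0.09, adjusted p = 0.37). At day 9 it was 4.39, 3.78 and 4.89 TPM in controls and 5.89, 5.62 and 6.67 TPM in deprived cells, a rise of 0.40 ± 0.09 (adjusted p = 0.000753). At day 6 the difference was 0.00 ± 0.09 (adjusted p = 0.976), and at day 12 it was 0.18 ± 0.09 (adjusted p = 0.103). In deprived cells it rose between days 3 and 12 (0.27 ± 0.09, adjusted p = 0.0173), as did 14.4% of all genes, a call lost without the third day 3 library (adjusted p = 0.0588) or the first day 12 library (adjusted p = 0.0731). The day 12 effect exceeded the day 3 effect by 0.34 ± 0.13 (adjusted p = 0.0401), a call kept in 4 of 12 fits that each left out 1 library (adjusted p 0.016 without the first day 3 control to 0.114 without the second day 12 control) and lost with quantile normalization (0.28, adjusted p = 0.0832).

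Counted over the time course, none of the 4 tested members was called at day 3, where 4.74% of all genes were. At day 6, 1 of 4 rose (19% of all genes did), at day 9 all 4 rose (29.4%), and at day 12 only RFK rose (34%). None fell at day 6, 9 or 12, where 14%, 19.7% and 18.4% of all genes fell. The day 12 share, 1 of 4, is near its background. With quantile normalization the split of all called genes at day 12 moved from 64.9% to 51.7% higher.

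**Figure D1:**
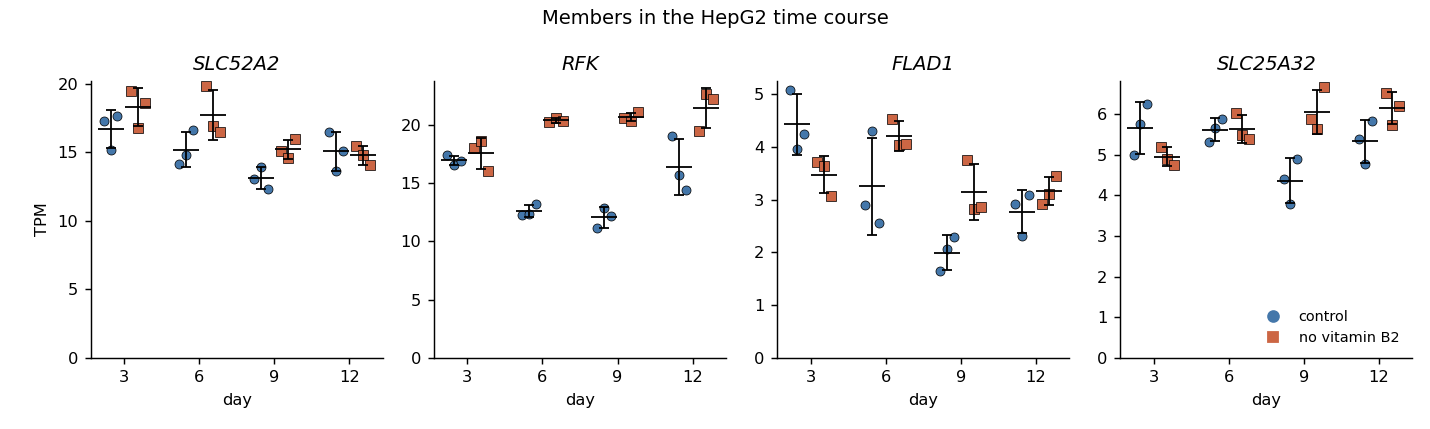
TPM of SLC52A2, RFK, FLAD1 and SLC25A32 (vertical axes, from 0) in each library of the HepG2 time course by day, with controls as circles and deprived cells as squares, and the bars giving mean and SD of 3 libraries. RFK separates from day 6 on, with deprived libraries at 20.2 to 20.6 TPM at day 6 and controls at 12.3 to 13.2 TPM.

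The transporters SLC52A1 and SLC52A3 were near the detection limit in HepG2. SLC52A1 did not exceed 0.206 TPM and SLC52A3 0.165 TPM in any of the 24 time course libraries. Over the 10 control and deprived pairs of groups in HepG2, SLC52A1 had 88 reads in deprived libraries, with at least 1 read in 26 of 30, and 23 reads in controls, with a read in 13 of 30. SLC52A3 had 40 reads in 16 of 30 deprived libraries and 12 reads in 6 of 30 controls. These sums are a description with no test, libraries differed in depth, and a count of 0 allows up to 3 reads, or 0.154 to 0.509 CPM (counts per library total) in the libraries of the AhR inhibitor table.

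In the time course, SLC52A1 had 16 reads in deprived cells and 5 in controls at day 3. It had 8 reads against 1 at day 12, while day 9 gave 2 in either group. With the control guide it had 13 and 0 reads, and with the AhR guide 10 and 0, with a read in all 3 deprived libraries in both. Without the IDO/TDO inhibitor it had 16 and 2 reads, and with it 3 and 6. The last is the only one of the 10 pairs in which the deprived libraries had fewer reads. SLC52A3 had 10 reads in deprived cells at day 12 and 0 in controls, and 8 and 0 without the IDO/TDO inhibitor. At day 6 it had fewer reads in deprived cells, 2 in 1 of 3 libraries, than in controls, 5 in 3 of 3. In deprived cells with the IDO/TDO inhibitor it had no read, like its controls.

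**Figure D2:**
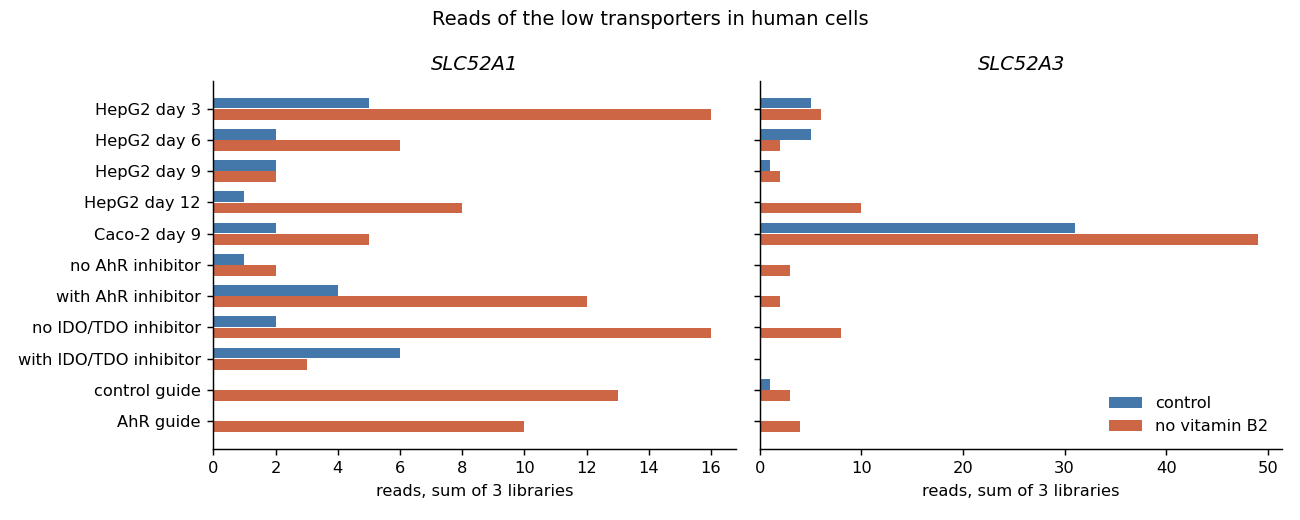
Reads of SLC52A1 and SLC52A3 (horizontal axes, from 0, sum of 3 libraries) in each control and deprived pair of human groups. SLC52A1 has more reads without the vitamin in 8 of 10 HepG2 pairs, the exceptions being day 9 (2 against 2) and the pair with the IDO/TDO inhibitor (3 against 6). SLC52A3 has most reads in Caco-2.

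The 3 further HepG2 sets each held a deprivation comparison at day 12 of their own, with no inhibitor or with the control guide, and there all 4 tested members rose. They are separate tables, tested within each, and their controls are not shared. The deprivation sets differed from day 12 of the time course in the median of all genes: it was 0.10 in the time course, 0.23 without the AhR inhibitor, 0.30 without the IDO/TDO inhibitor and 0.20 with the control guide, and changes are given relative to it where it matters. Of all genes, 44.6% rose without the AhR inhibitor, 53.6% without the IDO/TDO inhibitor and 43.6% with the control guide. With quantile normalization, called genes that were higher made up 51.9%, 52.9% and 52.2%, in place of 72.5%, 78.9% and 71.8%.

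SLC52A2 was 10.7, 9.82 and 10.7 TPM in controls and 15.1, 18.7 and 16.9 TPM in deprived cells without the AhR inhibitor. It was 13.9, 13.7 and 12.6 TPM in controls and 21.1, 18.9 and 18.2 TPM in deprived cells without the IDO/TDO inhibitor. With the control guide it was 15.2, 16.5 and 15.6 TPM against 20.4, 20.6 and 22.2 TPM. In each set every deprived library lay above every control. The rises were 0.64 ± 0.11 (adjusted p = 0.000243), 0.50 ± 0.09 (adjusted p = 0.000103) and 0.40 ± 0.09 (adjusted p = 0.00191). Relative to the median of all genes they were 0.42, 0.20 and 0.20, and with quantile normalization the last 2 missed the threshold (adjusted p = 0.0554 and 0.0643).

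RFK rose most in the AhR inhibitor set. It was 10.9, 11.7 and 11.7 TPM in controls and 24.3, 23.3 and 23.9 TPM in deprived cells, 2.09 times the control mean (1.00 ± 0.09, adjusted p = 9.62e-07). With the control guide it was 12.5, 13.2 and 11.5 TPM against 20.7, 18.0 and 18.7 TPM (0.59 ± 0.09, adjusted p = 4.43e-05). Without the IDO/TDO inhibitor it was 14.0, 15.4 and 16.9 TPM against 20.1, 20.3 and 19.3 TPM (0.35 ± 0.09, adjusted p = 0.00234). In all 3 sets the groups did not overlap. The rise in the IDO/TDO set was 0.05 relative to the median of all genes, and with quantile normalization it was 0.06 (adjusted p = 0.516).

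FLAD1 rose in all 3 sets, and its groups did not overlap in any. It was 2.72, 2.27 and 1.88 TPM in controls and 4.92, 4.45 and 5.10 TPM in deprived cells without the AhR inhibitor (0.83 ± 0.10, adjusted p = 1.51e-05). It was 3.48, 3.10 and 3.15 TPM against 6.33, 6.44 and 5.38 TPM without the IDO/TDO inhibitor (0.73 ± 0.09, adjusted p = 3.66e-06). With the control guide it was 2.72, 3.13 and 2.82 TPM against 6.18, 5.31 and 5.25 TPM (0.76 ± 0.12, adjusted p = 0.000117). Deprived means were 2.11, 1.87 and 1.93 times the control means. Relative to the median of all genes the rises were 0.61, 0.43 and 0.56, and all 3 kept the call with quantile normalization.

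SLC25A32 rose in the same 3 sets. It was 3.62, 3.98 and 4.43 TPM in controls and 7.17, 7.41 and 8.22 TPM in deprived cells without the AhR inhibitor (0.78 ± 0.16, adjusted p = 0.001). It was 3.21, 3.33 and 2.78 TPM against 6.50, 6.15 and 6.25 TPM without the IDO/TDO inhibitor (0.83 ± 0.10, adjusted p = 2.44e-06). With the control guide it was 3.63, 4.17 and 4.33 TPM against 6.69, 6.97 and 5.15 TPM (0.52 ± 0.10, adjusted p = 0.00044). The groups were separate in all 3 sets, the closest being the deprived library at 5.15 TPM with the control guide. Hepatocyte markers moved with deprivation in all of them, from 23914 to 26112 TPM down to 5675 to 5923 TPM in the AhR inhibitor set, and their part in the members' rise was not tested.

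**Figure D3:**
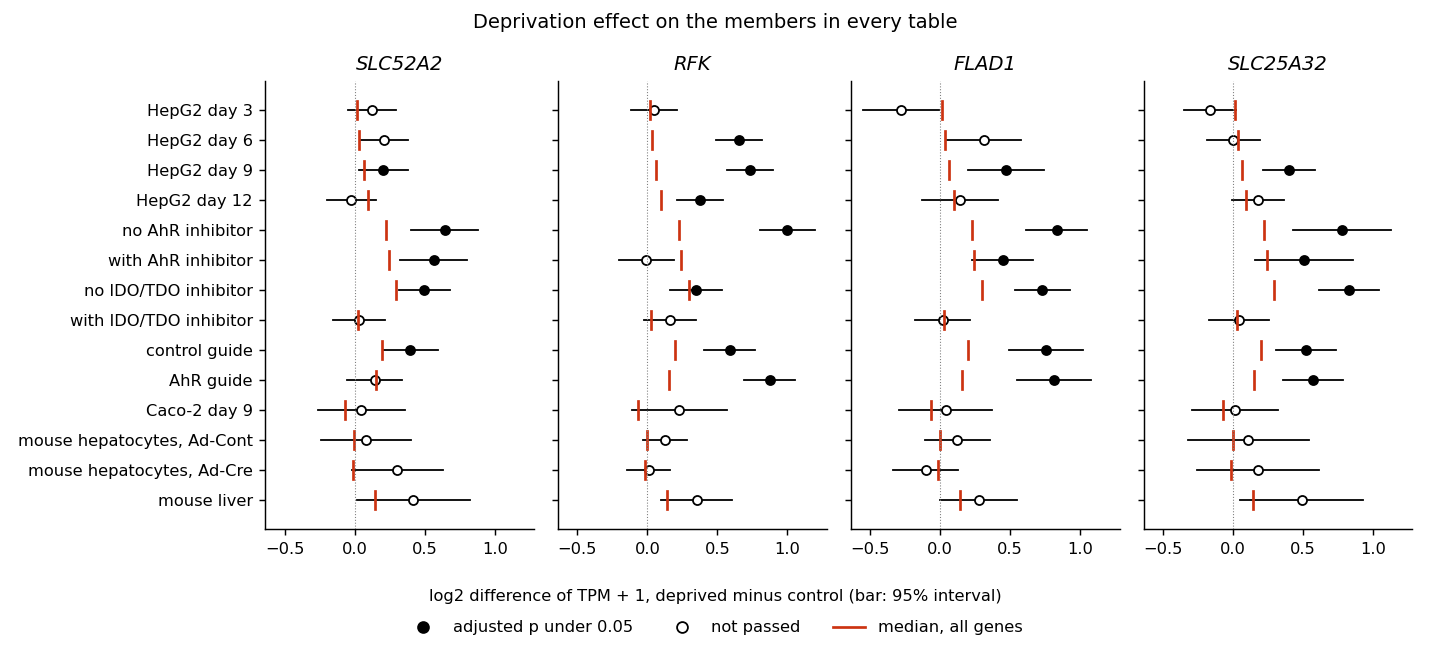
Log2 difference of TPM + 1, deprived minus control (horizontal axis), for the 4 members in 14 deprivation comparisons, with 95% intervals, filled points for adjusted p under 0.05 and a red mark for the median of all genes in the same comparison. Filled points lie in HepG2 only, and in the IDO/TDO set the RFK point (0.35) lies next to the red mark (0.30).

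Under the AhR inhibitor (10 µM in the headers) RFK showed no deprivation difference. With it, control RFK was 15.8, 17.9 and 20.4 TPM and deprived RFK 19.3, 17.0 and 17.3 TPM, so the groups overlapped fully (-0.01 ± 0.09, 95% interval -0.20 to 0.19, adjusted p = 0.957). The deprivation effect on RFK was lower by 1.01 ± 0.13 on the log2 scale with the inhibitor than without it (-1.01, adjusted p = 1e-04). RFK was higher in controls with the inhibitor than in controls without it (0.61 ± 0.09, adjusted p = 0.000227), as were 14.6% of all genes. It was lower in deprived cells with it than without (-0.40 ± 0.09, adjusted p = 0.00341), as were 21.7% of all genes. Without the third inhibitor-treated control library the difference in effect was -0.92 (adjusted p = 3.22e-05). CYP1A1 in the same libraries was 14.6 TPM without the vitamin and 2.68 TPM with it when no inhibitor was given, and 1.63 and 4.01 TPM with the inhibitor.

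SLC52A2, FLAD1 and SLC25A32 rose on deprivation with the inhibitor present. Deprived SLC52A2 was 18.4, 21.8 and 22.8 TPM against 15.4, 14.5 and 11.9 TPM in controls (0.56 ± 0.11, adjusted p = 0.00073). FLAD1 was 4.04, 3.69 and 3.96 TPM against 2.56, 2.55 and 2.67 TPM (0.45 ± 0.10, adjusted p = 0.00215). SLC25A32 was 6.12, 6.04 and 6.49 TPM against 3.46, 3.11 and 6.15 TPM, where the library at 6.15 TPM overlapped the deprived group (0.51 ± 0.16, adjusted p = 0.0166). SLC52A2 and FLAD1 had no overlap between groups. Here 3 of 4 tested members rose and 45.1% of all genes did, and the median of all genes was 0.24. Relative to it the rises were 0.32, 0.20 and 0.26, and with quantile normalization none of the 3 passed (adjusted p = 0.0512, 0.074 and 0.148), while RFK fell by 0.26 (adjusted p = 0.0164). The SLC25A32 call held in 3 of 6 fits that each left out 1 library. Without the library at 6.15 TPM the rise was 0.75 and kept its call. The call was lost without the first or the second inhibitor-treated control (adjusted p = 0.0678 and 0.0849), and also without 1 of the deprived libraries.

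The change of effect under the AhR inhibitor passed for 1 of 4 members in the lower direction, RFK, against 9.57% of all genes, and for none in the higher direction, against 12.9%. FLAD1 differed by -0.39 ± 0.14 (adjusted p = 0.0714), SLC25A32 by -0.27 (adjusted p = 0.432) and SLC52A2 by -0.08 (adjusted p = 0.767). SLC52A2 was also higher with the inhibitor in controls (0.38 ± 0.11, adjusted p = 0.0176) and in deprived cells (0.30 ± 0.11, adjusted p = 0.0466, where 18.6% of all genes were higher). The first was lost in 3 of 6 fits that each left out 1 library, with the highest adjusted p, 0.0651, without the second untreated control, and the second in 4 of 6, with the highest, 0.176, without the first untreated deprived library. As the inhibitor and the date in the headers coincide, these comparisons carry both.

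Under the IDO/TDO inhibitor the deprivation comparison of the members was close to 0. SLC52A2 was 13.9, 14.7 and 13.0 TPM in controls with the inhibitor and 15.8, 12.8 and 14.2 TPM in deprived cells with it (0.03 ± 0.09, adjusted p = 0.93). FLAD1 was 2.92, 2.81 and 2.54 TPM against 2.86, 2.88 and 2.68 TPM (0.02 ± 0.09, adjusted p = 0.968). SLC25A32 was 3.36, 3.50 and 3.54 TPM against 2.97, 3.75 and 4.16 TPM (0.04 ± 0.10, adjusted p = 0.918). RFK was 16.9, 16.2 and 15.9 TPM against 18.8, 20.4 and 16.1 TPM (0.16 ± 0.09, adjusted p = 0.504). For each of the 4 the groups overlapped. This was a feature of the whole set of libraries: of all genes, 1.39% were called in that comparison and 67.9% without the inhibitor. Hepatocyte markers summed to 30885 to 31519 TPM in controls and 28252 to 28643 TPM in deprived cells with the inhibitor, against 30262 to 31117 TPM and 8801 to 9084 TPM without it.

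The difference in deprivation effect between the 2 arms of the IDO/TDO set passed for 3 of 4 members, all lower with the inhibitor, as for 41.5% of all genes. It was -0.79 ± 0.14 for SLC25A32 (adjusted p = 0.000252), -0.71 ± 0.13 for FLAD1 (adjusted p = 0.000276) and -0.47 ± 0.12 for SLC52A2 (adjusted p = 0.00477), against a median of all genes of -0.27. For RFK it was -0.19 ± 0.12 (adjusted p = 0.214). With quantile normalization SLC52A2 no longer passed (-0.20, adjusted p = 0.209), and the split of called genes went from 22.7% to 48.4% higher. Among deprived cells, FLAD1 was 0.89 ± 0.09 lower with the inhibitor (-0.89, adjusted p = 4.28e-07), SLC25A32 0.67 lower (-0.67 ± 0.10, adjusted p = 2.75e-05) and SLC52A2 0.42 lower (-0.42 ± 0.09, adjusted p = 0.000501), where 49.6% of all genes were lower. With quantile normalization that SLC52A2 difference did not pass (-0.17, adjusted p = 0.109). In controls no member changed with the inhibitor, with differences between -0.18 and 0.12 (each adjusted p = 1), where 0.00872% of all genes, which is 1 gene, were called.

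With the AhR guide RFK, FLAD1 and SLC25A32 rose on deprivation and SLC52A2 did not pass. RFK was 8.97, 9.34 and 9.24 TPM in controls and 15.4, 19.0 and 18.7 TPM in deprived cells with the AhR guide, 1.93 times the control mean (0.87 ± 0.09, adjusted p = 1.64e-06). Its control values lay below all 3 controls with the control guide (-0.39 ± 0.09, adjusted p = 0.00258), where 13.4% of all genes were lower. Deprived RFK did not differ between guides beyond its spread (-0.11, adjusted p = 0.478). The deprivation effect on RFK was 0.29 ± 0.12 higher with the AhR guide and did not pass (adjusted p = 0.135), but it passed without the first deprived library with that guide (0.38, adjusted p = 0.042). CYP1A1 rose 2.73 ± 0.12 with the control guide (adjusted p = 4.88e-10) and changed by -0.10 with the AhR guide (adjusted p = 0.535).

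FLAD1 and SLC25A32 rose with either guide. With the AhR guide FLAD1 was 3.55, 3.06 and 2.13 TPM in controls and 6.29, 5.47 and 5.67 TPM in deprived cells (0.81 ± 0.12, adjusted p = 8.6e-05), and SLC25A32 was 4.54, 4.55 and 4.50 TPM against 7.02, 7.49 and 7.13 TPM (0.57 ± 0.10, adjusted p = 0.000281). The effects differed between guides by 0.06 (95% interval of the single effects 0.49 to 1.02 with the control guide and 0.55 to 1.08 with the AhR guide) for FLAD1 (adjusted p = 0.867) and by 0.05 for SLC25A32 (adjusted p = 0.861). SLC52A2 was 17.0, 16.0 and 13.0 TPM in controls and 18.8, 16.1 and 16.0 TPM in deprived cells with the AhR guide, with overlap (0.14 ± 0.09, adjusted p = 0.204). Its difference in effect was -0.25 ± 0.13 and did not pass (adjusted p = 0.218). In deprived cells SLC52A2 was lower with the AhR guide than with the control guide (-0.30 ± 0.09, adjusted p = 0.0493), as were 4.48% of all genes, a call kept only without the first deprived library with the AhR guide among 6 fits that each left out 1 library (adjusted p 0.036 to 0.16).

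With the AhR guide 3 of 4 members rose with deprivation, against 37.6% of all genes, and none fell, against 15.6%. The difference in effect between guides passed for none of the 4 members, where 14.4% of all genes passed.

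**Figure D4:**
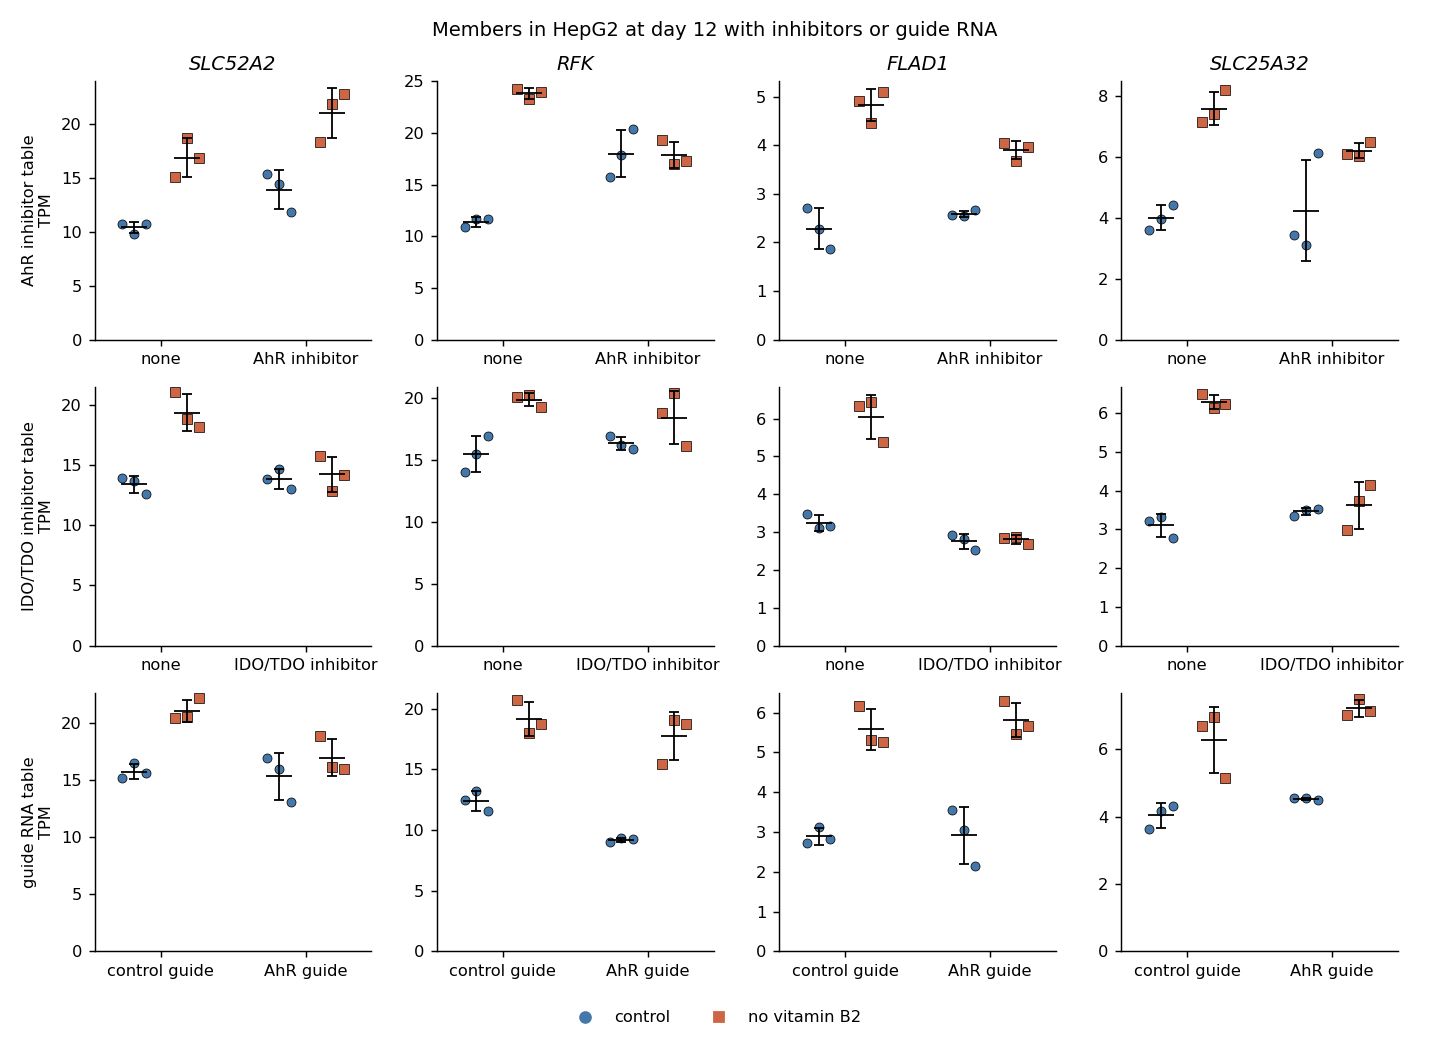
TPM of the 4 members (vertical axes, from 0) in each HepG2 library at day 12, with rows for the AhR inhibitor, IDO/TDO inhibitor and guide RNA tables, controls as circles, deprived cells as squares, and bars for mean and SD of 3 libraries. RFK is separated by deprivation without the AhR inhibitor (23.3 to 24.3 against 10.9 to 11.7 TPM) and overlaps with it, and FLAD1 is separated without the IDO/TDO inhibitor and overlaps with it.

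No tested member passed the test of Kyn against DMSO. SLC52A2 was 19.3, 20.5 and 17.4 TPM with DMSO and 15.0, 13.9 and 17.8 TPM with Kyn (-0.28 ± 0.10, adjusted p = 0.0868). RFK was 17.0, 16.3 and 20.2 TPM against 16.0, 15.2 and 15.4 TPM, each Kyn library below each DMSO library (-0.18, adjusted p = 0.288). FLAD1 differed by 0.23 (adjusted p = 0.333) and SLC25A32 by -0.12 (adjusted p = 0.692). Of the 4 members 0 were called, where 11.7% of all genes were. CYP1A1 was 1.51 to 1.86 TPM with DMSO and 1.78 to 2.46 TPM with Kyn, a difference that did not pass either (0.18, adjusted p = 0.521). With the AhR inhibitor present CYP1A1 was higher with Kyn than with DMSO, at means of 2.377 and 1.065 TPM (0.69 ± 0.17, adjusted p = 0.0182). In Kyn-treated cells CYP1A1 was not lower with the inhibitor than without it (0.10, adjusted p = 0.713).

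In Kyn-treated cells FLAD1 was lower with the AhR inhibitor than without it, 2.40, 2.73 and 2.34 TPM against 4.47, 3.89 and 3.01 TPM (-0.45 ± 0.15, adjusted p = 0.0427). It was 1 of 4 members to fall, and 17.6% of all genes fell. The call held in 1 of 6 fits that each left out 1 library, the one without the third Kyn library (adjusted p = 0.0237), and the highest adjusted p was 0.154, without the first Kyn library. Kyn differed in effect with the inhibitor by -0.51 ± 0.21 for FLAD1, which did not pass (adjusted p = 0.147), and for no member did that difference pass, where 8.94% of all genes did. Nor did any member differ between Kyn and DMSO with the inhibitor present, where 10.8% of all genes were called.

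In Caco-2, the intestinal line, no tested member passed after 9 days without the vitamin, while 33.7% of all genes were called. SLC52A2 was 6.26, 9.07 and 8.81 TPM in controls and 9.52, 7.90 and 7.46 TPM in deprived cells (0.05 ± 0.14, 95% interval -0.27 to 0.36, adjusted p = 0.825). RFK was 4.51, 4.61 and 6.30 TPM against 5.80, 7.61 and 5.18 TPM (0.23 ± 0.15, -0.11 to 0.57, adjusted p = 0.285). FLAD1 differed by 0.04 ± 0.15 (-0.29 to 0.37) and SLC25A32 by 0.02 ± 0.14 (-0.29 to 0.33). The interval for RFK ends below its day 9 difference in HepG2 (0.73), but the lines were tested in separate tables and the difference between them was not tested. All 6 Caco-2 libraries held SLC52A3 reads, 31 in controls and 49 in deprived cells, at 0.925, 0.149 and 0.384 TPM against 0.741, 0.868 and 0.651 TPM, which did not pass the filter. SLC52A3 is known as a riboflavin transporter of the gut lining. Enterocyte markers, 5 of 7 at 1 TPM or more on average, summed to 485 to 534 TPM in controls and 262 to 303 TPM in deprived Caco-2 cells. Their part in these values was not tested. The same list summed to 2711 to 2840 TPM in HepG2 controls at day 12, with 2 of 7 at 1 TPM or more. All 7 hepatocyte markers were present in Caco-2 controls (2692 to 2834 TPM). The enterocyte sum thus does not set Caco-2 apart from HepG2.

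In mouse hepatocytes none of the 5 members passed the test of deprivation. Rfk was 33.3, 33.0 and 32.6 TPM in controls and 32.6, 38.8 and 37.0 TPM in deprived cells with Ad-Cont, and 33.4, 34.7 and 33.4 TPM against 35.8, 32.0 and 34.4 TPM with Ad-Cre. With Ad-Cont the difference was 0.12 ± 0.07 (95% interval -0.03 to 0.28, adjusted p = 0.322), and with Ad-Cre it was 0.01 ± 0.07 (-0.15 to 0.16, adjusted p = 0.98). In both arms the groups overlapped. Flad1 was 8.41, 8.26 and 8.14 TPM in controls and 10.0, 8.76 and 8.55 TPM in deprived cells with Ad-Cont, without overlap but not past the test (0.12 ± 0.11, adjusted p = 0.534).

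Slc52a2 was 6.85, 7.12 and 7.49 TPM against 6.38, 8.90 and 7.78 TPM with Ad-Cont, and 5.08, 8.15 and 7.71 TPM against 9.27, 9.09 and 7.79 TPM with Ad-Cre (0.30 ± 0.15, adjusted p = 0.527). Slc52a3, absent from the tested genes of human cells, passed the filter in these hepatocytes, at 0.823 to 1.93 TPM in the 12 libraries, and differed by -0.01 ± 0.19 and 0.07 ± 0.19. Slc25a32 was 2.11 to 4.20 TPM over the 12 libraries and differed by 0.11 ± 0.20 with Ad-Cont and 0.18 ± 0.20 with Ad-Cre. Of the 5 members 0 were called in either comparison, where 9.78% of all genes were called with Ad-Cont and 0.329% with Ad-Cre. None passed in the comparison of Ad-Cre with Ad-Cont in controls (0.0247% of all genes), in deprived cells (1.03%) or in the difference of the effects (0.247%). Stellate and fibroblast markers were 23.3 to 26.9 TPM in controls and 7.40 to 12.3 TPM in deprived cells with Ad-Cont, and their part in these values was not tested.

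In mouse liver all 4 tested members had a higher mean on the deficient condition, and none passed. Rfk was 23.8, 23.2, 22.4 and 23.3 TPM in controls and 28.3, 34.9, 30.6 and 26.3 TPM in deficient livers, with every deficient liver above every control (0.35 ± 0.12, 95% interval 0.10 to 0.60, adjusted p = 0.0981). Slc25a32 was 11.7, 14.0, 7.93 and 10.3 TPM against 17.0, 22.0, 13.1 and 11.9 TPM (0.49 ± 0.20, 0.05 to 0.93, adjusted p = 0.157). Slc52a2 was 4.37, 6.82, 4.98 and 6.15 TPM against 5.16, 9.27, 9.55 and 7.60 TPM (0.42 ± 0.19, 0.02 to 0.82, adjusted p = 0.181). The last 2 groups overlapped. Flad1 was 15.7, 23.1, 17.8 and 18.6 TPM against 22.9, 23.5, 21.8 and 22.8 TPM, where 1 control lay within the deficient range (0.28 ± 0.13, adjusted p = 0.196). Of all genes 3.41% were called, and the median of all genes was 0.14, so that relative to it the differences were 0.21 for Rfk and 0.35 for Slc25a32. Slc52a3 was at most 0.303 TPM in liver. Markers of endothelium were 11.8 to 21.5 TPM in controls and 21.1 to 29.0 TPM in deficient livers, and their part was not tested.

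**Figure D5:**
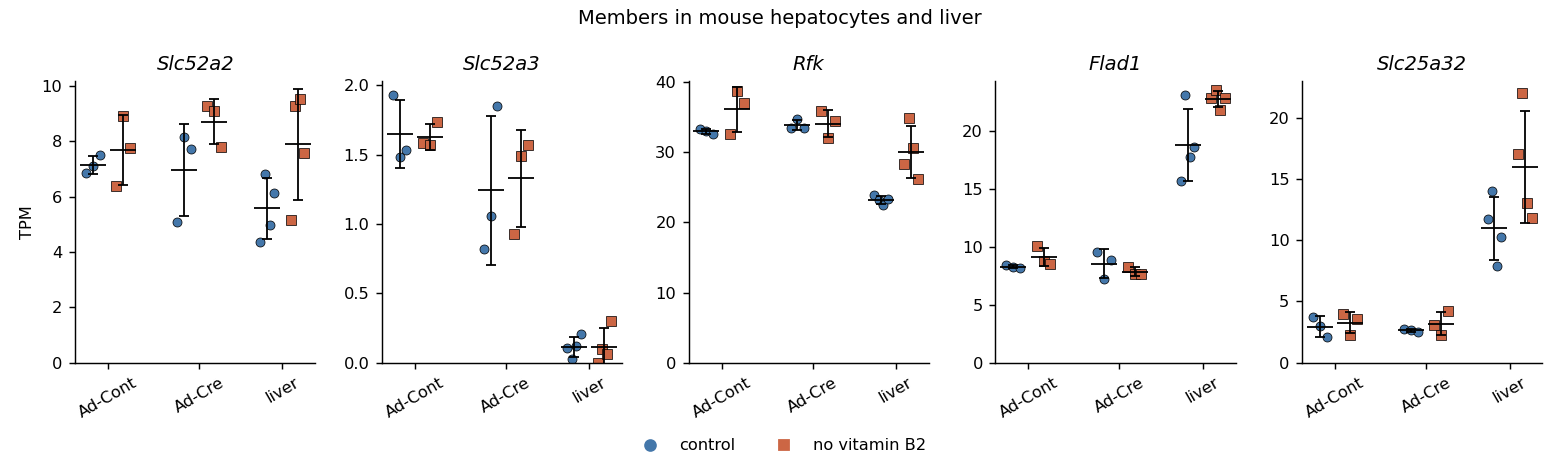
TPM of the 5 mouse members (vertical axes, from 0) in each library of AhR-flox hepatocytes with Ad-Cont or Ad-Cre and of liver, controls as circles, deprived or deficient as squares, bars for mean and SD (3 libraries in hepatocytes, 4 in liver). Rfk in liver is the member whose groups do not overlap in liver, 22.4 to 23.8 against 26.3 to 34.9 TPM. The hepatocyte and liver tables were normalized separately.

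Over the 24 libraries of the time course the genes whose level followed a member most closely, among 4672 genes with a mean of at least 10 TPM, were AKR1C2 (r = 0.923), PHLDA2 (0.916) and SLC3A2 (0.915) for RFK. For FLAD1 they were PTGDR2 (0.873), CCDC86 (0.846) and ABCF1 (0.838). For SLC52A2 they were CD151 (0.864), IGF2R (0.823) and ARPC5L (0.820), and for SLC25A32 FGFR4 (0.775), AGMAT (0.752) and APRT (0.738). Between the members r was highest for SLC52A2 with FLAD1 (0.643) and lowest for SLC52A2 with SLC25A32 (0.260), and RFK reached 0.490 with FLAD1. These values describe libraries that share days and treatment and carry no test.

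The enzymes that use FAD or FMN moved in both directions in HepG2. At day 12, of 66 tested genes of that list 31 rose and 19 fell, with a median of 0.20 against 0.10 for all genes, of which 34% rose and 18.4% fell. Among them FDXR, ferredoxin reductase, rose by 2.16 ± 0.13, NQO1, a quinone reductase, by 1.73 ± 0.06 and SQOR, a sulfide quinone reductase, by 1.59 ± 0.16. FMO5, a flavin monooxygenase, fell by 2.25 on the log2 scale. Of the 7 genes for flavinylation and assembly of succinate dehydrogenase 4 rose and none fell (median 0.41), with SDHB at 0.58, SDHD at 0.51, SDHAF2, which attaches FAD to the enzyme, at 0.49 and SDHC at 0.41. In Caco-2, 7 of 63 enzymes that use FAD or FMN rose and 21 fell (median -0.26 against -0.07 for all genes, of which 14.3% rose and 19.5% fell), with TXNRD1, thioredoxin reductase, rising by 1.73 ± 0.08 and ACADM, medium-chain acyl-CoA dehydrogenase, at -0.84. There none of the 7 succinate dehydrogenase genes rose and 3 fell, SDHAF4 by 0.68, SDHAF1 by 0.40 and SDHC by 0.34 on the log2 scale. In liver, 3 of 77 enzymes that use FAD or FMN rose and 1 fell, near the shares of all genes (2.25% and 1.16%), with Etfdh, which passes electrons from acyl-CoA dehydrogenases to the respiratory chain, rising by 0.51 and Hao1, a glycolate oxidase, at -1.28.

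The mitochondrial folate enzymes, listed because SLC25A32 is also named a folate carrier, rose in 4 of 10 and fell in 1 of 10 at day 12 (median 0.19), near the 34% and 18.4% of all genes, with GCSH at 0.94 and AMT at 0.57, both of the glycine cleavage system. In the other sets 4 of 9 rose without the AhR inhibitor (44.6% of all genes did), 6 of 8 without the IDO/TDO inhibitor (53.6%) and 6 of 9 with the control guide (43.6%). None fell, against 16.9%, 14.3% and 17.1% of all genes. With the IDO/TDO inhibitor none of the 8 was called, where 1.39% of all genes were. Of 4 tested genes of flavin release and efflux, 1 rose and 2 fell at day 12, where 34% of all genes rose and 18.4% fell. ABCG2, an efflux pump that carries riboflavin, rose by 0.72 and NT5E, an ecto-nucleotidase, fell by 1.74 on the log2 scale. NT5E also fell in Caco-2 (-0.54), while in mouse liver Nt5e rose by 1.06 ± 0.24 (adjusted p = 0.0427). For other B vitamins 9 of 26 genes rose at day 12 and 9 fell, against 34% and 18.4% of all genes. The share that rose is near that of all genes, and the share that fell is above it. The largest changes were in NADK2 (-1.28) and MMAB (-0.85), followed by SLC19A1, the reduced folate carrier, at -0.81. In Caco-2, 2 of 30 of them rose and 12 fell, against 14.3% and 19.5% of all genes. The lists were put together with earlier results of these data known.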

How the data were processed

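The 8 tables hold TPM values that the authors deposited, 1 transcript per gene with its length, in the layout of HOMER per the file headers. Per the submitters' processing notes the tools were STAR, Bowtie2 and HOMER, for hg38 and mm10, and no roles or counting options are stated there. Libraries were made with a QuantSeq 3′ V2 kit per the labels' protocols. The headers of the liver columns hold run names and no date, unlike those of the cells. Whether the livers were sequenced with the same kit and at the same time cannot be read from the headers. Members were found by symbol and all 98 columns were matched to groups by name. The members and gene lists were chosen with earlier results of these data known. Reads were recovered as whole multiples of TPM times length (100% of the values checked lay within 0.1 of a whole number, for genes up to 3000 bases and 20 reads) and gave 4049600 to 19644000 reads per library, so intervals and limits from them cover counting error only.

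Each table was fitted separately with limma 3.58.1 in R 4.3.3 on log2(TPM + 1) (group means, empirical Bayes with trend and robust settings), for genes at 1 TPM or more in 3 libraries (4 in liver), two-sided, with Benjamini-Hochberg adjustment within each of 34 contrasts and a threshold of 0.05. This pulls fold changes of low genes toward 0. The fit was tested on simulated data. Named genes were the members, for each tested member the 3 genes of highest Pearson r in the time course, and from each list up to 4 called genes with the largest change at day 12, in Caco-2 and in liver. Replicate libraries showed no duplicate (lowest mean chi-square per gene 1.99). Alternatives were a pseudocount of 0.1, no filter, a filter of 5 TPM, a common total, quantile normalization, voom on the recovered reads, a replicate block and leaving out each library.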

Additional observations from a re-analysis of the deposited data

Results flagged for a closer look

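The deprivation effect differed between groups of a table for 6 member results, each by a limma test of the difference itself over all tested genes of the table. In the HepG2 time course the effect at day 12 was greater than at day 3 by 0.33 for RFK (adjusted p = 0.0251) and by 0.34 for SLC25A32 (adjusted p = 0.0401). Of all genes 37.7% passed that test. The RFK call held in 6 of 12 fits that each left out 1 library and the SLC25A32 call in 4 of 12. Both were lost with quantile normalization. At day 12 with the AhR inhibitor the effect on RFK, the kinase that makes FMN, was lower than without it, by -1.01 on the log2 scale (adjusted p = 1e-04), and in that set the inhibitor and the date in the headers cannot be told apart. Of all genes 22.5% passed in that set. With the IDO/TDO inhibitor the effect was lower by -0.47 for SLC52A2 (adjusted p = 0.00477), by -0.71 for FLAD1 (adjusted p = 0.000276) and by -0.79 for SLC25A32 (adjusted p = 0.000252). Of all genes 53.7% passed the same test there, and with quantile normalization the SLC52A2 difference did not pass. Hepatocyte markers in deprived cells moved the other way, summing to 28252 to 28643 TPM with the inhibitor and 8801 to 9084 TPM without it. Their part in the members' values was not tested.

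Groups of 3 were not tested for single distant libraries. In liver, with 4 per group, Dixon's ratio found none in the 10 groups of 5 members.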

How the results depend on the processing

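Results for single members kept their call, or their lack of one, in 957 of 1004 fits that left out 1 library. Under the other settings they did so in 910 of 954. Results called in neither fit count as kept even where their direction changed, so these totals do not describe the called results alone. The replicate numbers do not pair the libraries: in none of 27 contrasts did every same-numbered pair correlate over 0.1 (r -0.108 to 0.187). With the replicate block 1 member in place of 2 was lower with the AhR guide (SLC52A2 in deprived cells, adjusted p = 0.0615). SLC52A2 in deprived cells with the AhR inhibitor lost its call with the block (adjusted p = 0.0654). The same call was lost with a pseudocount of 0.1, no filter, quantile normalization and a common total. SLC52A2 at day 6 gained a call with the block (adjusted p = 0.0485), and also with the 5 TPM filter, a common total and voom. With the block the genes called went to 2 in IDO/TDO controls and to 0 in hepatocyte controls with Ad-Cre. No paired analysis was possible in liver because its columns carry no number.

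Quantile normalization turned RFK in controls from day 3 to day 12 to 0.22. It gave 4 higher members in place of 7 and 1 lower in place of 0 for deprivation in the AhR inhibitor table, 2 higher in place of 4 in the IDO/TDO table, and 1 lower in place of 2 over time, as did the 5 TPM filter, which FLAD1 fails in that table. A common total gave 4 lower members in place of 2 for the AhR inhibitor. With a pseudocount of 0.1 or no filter 1 member in place of 2 was lower with the AhR guide. The FLAD1 fall with the AhR inhibitor under Kyn was lost (0 in place of 1) without the filter, with 5 TPM, with quantile normalization and with voom, and voom gave 1 higher member in place of 0. The cause was not tested, other than fewer genes tested under the stricter filter.

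Counts of all called genes moved too. Without the filter they were 53 in place of 159 for deprivation with the IDO/TDO inhibitor, 0 in place of 1 in its controls, 636 in place of 1055 for the change of the Kyn effect, 131 in place of 369 in liver, and in hepatocytes 26 in place of 40 for deprivation with Ad-Cre, 79 in place of 125 for Ad-Cre in deprived cells and 16 in place of 30 for the change of effect. With 5 TPM they were 5074 in place of 7791 and 4946 in place of 7534 in the IDO/TDO table (deprivation, and inhibitor in deprived cells), and 52 and 1 for the change of effect and for controls in hepatocytes. Quantile normalization gave 748 in place of 1279 for Kyn with the AhR inhibitor, 1 in place of 3 in hepatocyte controls and 238 in liver. Voom gave 339 with the IDO/TDO inhibitor, 2695 in place of 1712 for the change of effect with the AhR guide, and 112, 6, 249 and 142 in hepatocytes (deprivation with Ad-Cre, controls, deprived cells, change of effect). A pseudocount of 0.1 gave 0 in hepatocyte controls.

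Leaving out 1 library, the higher members over time ranged from 1 to 4, the higher and lower members with the AhR guide from 0 to 1 and from 1 to 2, the members lower with Kyn from 0 to 1 and those lower with the AhR inhibitor under Kyn from 0 to 1. Genes called ranged from 351 to 404 at day 3, 60 (without the third control) to 166 with the IDO/TDO inhibitor, 0 to 1 in its controls, 848 to 1048 with the AhR guide in deprived cells, 915 to 1137 for Kyn, 751 to 997 for Kyn with the AhR inhibitor and 0 to 1 for the inhibitor in DMSO. In hepatocytes they ranged from 719 to 1081 (deprivation with Ad-Cont), 16 to 32 (with Ad-Cre), 0 to 1 (controls), 49 (without the third Ad-Cre library) to 204 (without the first Ad-Cont library) in deprived cells and 11 (without the first deprived Ad-Cre library) to 186 (without the third Ad-Cre control) for the change of effect. In liver they ranged from 75, without control column 3, to 547, without control column 2.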
